A study of Caenorhabditis elegans with 2 samples.

Results

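In the worm Caenorhabditis elegans, CEH-18 is a transcription factor with a POU domain and a homeodomain, and the sites described here are those on the X chromosome that lay away from gene starts. Sites were mapped by chromatin immunoprecipitation and sequencing of whole hermaphrodite late embryos of strain OP533, which carries unc-119(tm4063) on chromosome III and the integrated transgene wgIs533. That transgene adds a GFP-FLAG tag to the C-terminus of CEH-18. Animals were synchronised by egg bleaching and collected 3 h later. The description names an anti-GFP antibody while the antibody field names ceh-18, so whether untagged protein was also precipitated cannot be told from the labels. Both biological replicates, with 1 library each, belong to the same genotype and stage, so the comparison made here is between chromosomes. No cell type was separated, and which cells express the transgene is not stated in the labels.

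Of 2575 summits (the highest point of a peak) in the thresholded list, 570 lay on X. A promoter window, 1000 bp upstream to 200 bp downstream of the 5′ end of a protein-coding gene, held 224 of them, and 69 more lay within 200 bp of a tRNA, snoRNA or snRNA gene. The remaining 277 are the summits described, called summits outside promoters below. They are set against the 957 of 2005 autosomal summits that passed the same rule. Summits are positions in the same 2 libraries, several share 1 peak or 1 gene, and they are not replicates of a condition, so each test describes this peak list. The intervals given cover counting error only.

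As background, POU proteins bind DNA through a POU-specific domain and a homeodomain, classically at the octamer ATGCAAAT, and CEH-18 is known for its role in gonadal sheath cells and in oocyte meiotic arrest. The X chromosome of hermaphrodites is bound by the dosage compensation complex, a condensin-containing complex that lowers transcription from both X chromosomes. It is recruited at elements on X that carry a motif with the core GCGCAGGG. Many worm introns and intergenic stretches contain enhancers, and the 5′ ends of many annotated worm genes are trans-splice sites rather than sites of transcription initiation.

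Some of the strongest sites are shown first because they hold, or lack, the words whose frequency differed between X and the autosomes. Each line is the 151 bases centred on a summit, on the plus strand of ce11 (WBcel235) as read from the RefSeq assembly of that build. The name is that of the host gene for an intron and otherwise of the protein-coding gene with the nearest 5′ end. Capitals in the following 6 mark GCGCAGGG or its reverse complement CCCTGCGC.
W02H3.3, intergenic, chrX:11094114-11094264: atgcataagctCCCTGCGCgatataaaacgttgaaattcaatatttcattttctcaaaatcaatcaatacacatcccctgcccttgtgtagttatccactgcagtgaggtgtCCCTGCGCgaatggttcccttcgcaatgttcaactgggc
mom-1, intron, chrX:6296498-6296648: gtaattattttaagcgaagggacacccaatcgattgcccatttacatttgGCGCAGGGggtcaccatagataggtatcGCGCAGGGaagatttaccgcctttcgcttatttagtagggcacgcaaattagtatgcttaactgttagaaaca
F20B6.9, intergenic, chrX:4209199-4209349: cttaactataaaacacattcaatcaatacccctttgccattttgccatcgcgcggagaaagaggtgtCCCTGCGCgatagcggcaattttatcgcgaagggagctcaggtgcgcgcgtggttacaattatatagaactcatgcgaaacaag
xol-1, intergenic, chrX:8036369-8036519: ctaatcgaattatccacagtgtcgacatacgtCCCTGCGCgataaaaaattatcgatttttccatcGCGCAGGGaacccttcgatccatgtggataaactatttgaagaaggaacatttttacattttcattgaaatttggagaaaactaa
Y41G9A.17, intron, chrX:2997007-2997157: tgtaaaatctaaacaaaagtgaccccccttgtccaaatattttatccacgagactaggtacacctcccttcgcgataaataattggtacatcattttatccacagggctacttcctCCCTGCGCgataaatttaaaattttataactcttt
gtr-1, intergenic, chrX:806620-806770: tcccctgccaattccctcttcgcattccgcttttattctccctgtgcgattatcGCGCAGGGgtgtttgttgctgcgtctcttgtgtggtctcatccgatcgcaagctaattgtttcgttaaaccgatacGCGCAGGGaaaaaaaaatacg
The next windows are 2 of the strongest that hold the GA repeat GAGAGA, marked in capitals on either strand.
sma-9, intron, chrX:10771133-10771283: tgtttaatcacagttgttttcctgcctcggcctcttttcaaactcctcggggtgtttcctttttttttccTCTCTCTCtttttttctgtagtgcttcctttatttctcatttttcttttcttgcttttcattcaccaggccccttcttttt
pigx-1, intergenic, chrX:1093222-1093372: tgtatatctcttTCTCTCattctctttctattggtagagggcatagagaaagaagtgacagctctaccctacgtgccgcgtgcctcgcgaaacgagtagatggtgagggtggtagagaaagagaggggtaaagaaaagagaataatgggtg
The last 4 are among the strongest windows in introns and intergenic sequence and hold neither word.
K02D3.1, intergenic, chrX:13700789-13700939: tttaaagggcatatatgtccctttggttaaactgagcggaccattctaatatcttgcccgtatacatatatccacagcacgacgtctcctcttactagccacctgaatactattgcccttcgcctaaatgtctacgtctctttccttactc
C30E1.4, intergenic, chrX:16929675-16929825: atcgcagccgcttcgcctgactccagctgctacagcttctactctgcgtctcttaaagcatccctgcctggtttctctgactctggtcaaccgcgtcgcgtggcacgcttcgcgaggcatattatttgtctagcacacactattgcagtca
F09A5.3, intron, chrX:13145325-13145475: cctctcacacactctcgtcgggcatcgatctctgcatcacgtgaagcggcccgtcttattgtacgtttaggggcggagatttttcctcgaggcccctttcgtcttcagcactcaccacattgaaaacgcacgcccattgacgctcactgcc
nhr-3, intron, chrX:14560327-14560477: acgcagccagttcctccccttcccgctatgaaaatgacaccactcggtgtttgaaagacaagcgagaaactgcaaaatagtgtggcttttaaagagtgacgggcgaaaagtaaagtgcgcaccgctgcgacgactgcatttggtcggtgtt
Copies of the core came in pairs in 4 of these windows, beside W02H3.3, xol-1 and gtr-1 and in mom-1.

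The density of summits outside promoters was higher on X than over all autosomes. X had 277 summits in 14.5 Mb of sequence eligible under the rule, or 19.1 per Mb (95% exact Poisson interval 16.9 to 21.5). The autosomes had 957 in 63.9 Mb, or 14.98 per Mb (14.05 to 15.96). The ratio was 1.28 (1.11 to 1.46, exact conditional test of 2 Poisson rates, two-sided p = 4.869e-04). X was not outside the range of single autosomes, since chromosome III had 19.2, chromosome I 18.7, chromosome IV 14.2, chromosome II 13.9 and chromosome V 10.7 summits per Mb. X and chromosome III were nearly equal, while chromosome V was the lowest of the 6 chromosomes.

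Within single annotation classes the difference did not pass the test. Introns held 103 summits on X, 20.2 per Mb of eligible intron, against 417 on the autosomes, 16.4 per Mb (ratio 1.23, 0.980 to 1.53, exact Poisson test, adjusted p = 0.117). Intergenic sequence held 169 summits on X, 29.9 per Mb, against 502 on the autosomes, 26.015 per Mb (ratio 1.15, 0.960 to 1.37, adjusted p = 0.117, both by the exact Poisson test with Benjamini-Hochberg adjustment over the 2 classes). Both classes passed the threshold with the larger promoter window, without the exclusion near small RNA genes, and with chromosome I or chromosome III left out, the 2 autosomes of highest density. In most of 13 alternatives they did not pass, 9 for introns and 8 for intergenic sequence. With chromosome V, the autosome of lowest density, left out, the ratios were 1.14 and 1.04 (exact Poisson test, adjusted p = 0.489 and 0.678). Coding exons held 1 summit on X and 6 on the autosomes, at 0.328 and 0.359 per Mb. They made up 3.04 of the 14.5 eligible Mb on X against 16.7 of the 63.9 eligible Mb on the autosomes. Intergenic sequence made up 5.65 Mb on X and 19.3 Mb on the autosomes, so X had relatively more of it. Both class ratios were below the ratio of 1.28 over all classes, and the part of this class mix in that ratio was not tested. The 5′ UTRs held 4 summits on X and 26 on the autosomes, and the 3′ UTRs 0 on X and 6 on the autosomes.

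**Figure D1:**
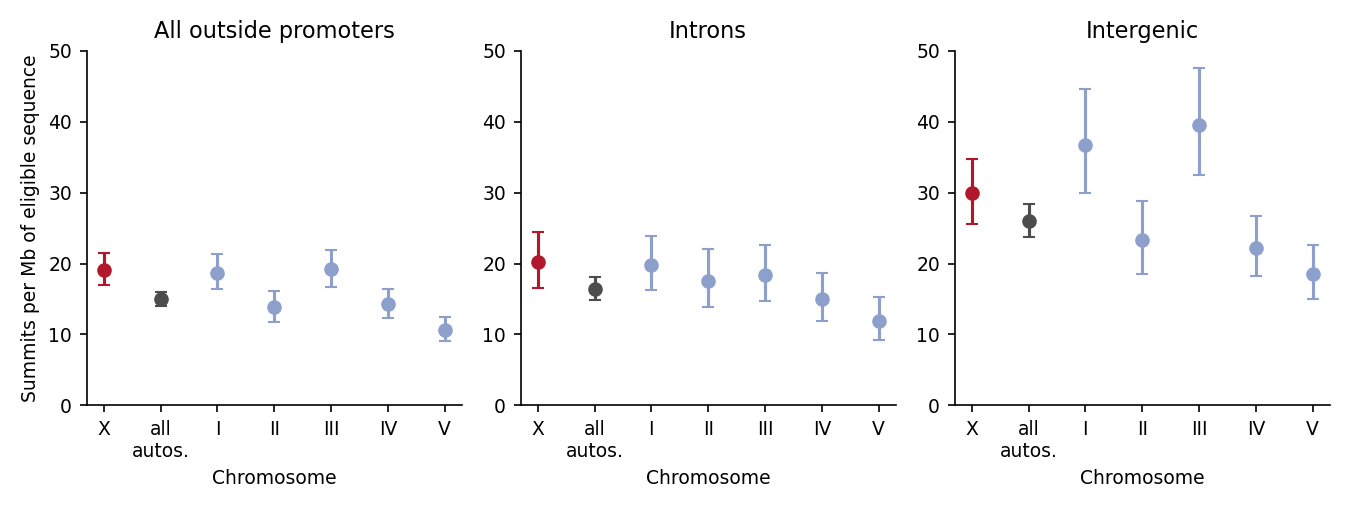
Summits outside promoters per Mb of eligible sequence (y axis) for X, all autosomes together and each autosome (x axis), for all such summits, introns and intergenic sequence. Points are the rates and bars the 95% exact Poisson intervals. X, at 19.1 per Mb over all classes, lay above the autosomes together at 14.98 and near chromosome III at 19.2.

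Outside promoter windows alone lay 346 of 570 X summits (60.7%) and 1077 of 2005 autosomal summits (53.7%, odds ratio 1.33, 1.10 to 1.62, Fisher's exact test, two-sided p = 0.00309). Of these, 69 on X and 120 on the autosomes were near a tRNA, snoRNA or snRNA gene. With those set aside as the rule asks, 277 summits were 48.6% of all X summits and 957 were 47.7% of all autosomal summits (odds ratio 1.04, 0.856 to 1.25, Fisher's exact test, two-sided p = 0.740). Introns made up 37.2% of the X summits and 43.6% of the autosomal ones (odds ratio 0.767, 0.576 to 1.02, Fisher's exact p = 0.0622), and this share passed the threshold under 7 of 13 alternatives. Summits over 5000 bp from any protein-coding 5′ end were 59 on X (21.3%) and 225 on the autosomes (23.5%, odds ratio 0.880, Fisher's exact p = 0.467). The median distance to the nearest 5′ end was 2811 bp on X and 2550 bp on the autosomes. On X, 143 summits lay upstream of that end and 134 downstream.

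The signal of a peak is the value from the authors' peak caller, whose unit the labels do not give. On X its median was 171 with a range of 114 to 804, and on the autosomes 166 with a range of 114 to 661. The top 25% of the whole list, at a signal of at least 238, held 72 X summits (25.99%) and 205 autosomal ones (21.4%, odds ratio 1.29, 0.930 to 1.77, Fisher's exact p = 0.120). The list before thresholding, made from the pooled replicates, had 3755 summits of the same class on X, of which 277 (7.38%) passed the threshold, against 957 of 16645 (5.75%) on the autosomes (odds ratio 1.31, 1.13 to 1.502, Fisher's exact p = 2.329e-04). Of all 28466 pooled summits, promoters included, 9.05% passed. The 277 and the 957 are those fixed by the rule, so the comparison is of how many weaker summits lay beside them.

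Nearly every X summit outside promoters was covered by a peak in both replicates. Replicate 1's list of 30000 peaks overlapped 276 of the 277 (99.6%), and replicate 2's list of 21323 nuclear peaks overlapped 277. The lists are long, so the overlap was also taken with only the 2575 strongest peaks of each replicate, which covered 252 (91.0%) and 248 (89.5%), for replicates 1 and 2 in that order. The same settings gave 91.3% and 88.5% for the autosomal summits. The 1 summit missed in replicate 1 was the intron summit of nhr-173, a nuclear hormone receptor gene, with a signal of 122 in the thresholded list and 82.9 in replicate 2. The thresholded list was itself built on agreement between replicates, so high overlap follows in part from the rule.

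**Figure D2:**
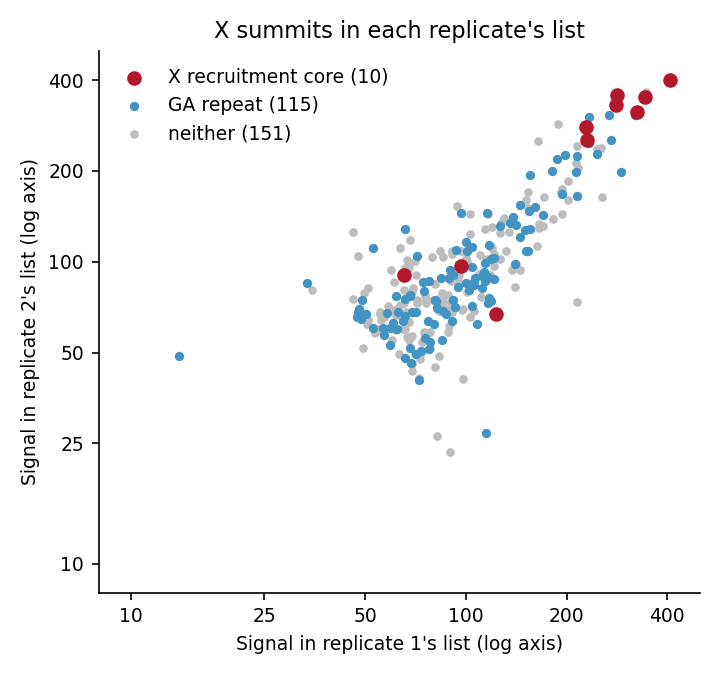
Signal of each X summit outside promoters in replicate 1's list (x axis) and replicate 2's list (y axis), both log axes on the caller's unstated scale, for the 276 summits covered in both. Colour marks GCGCAGGG, GAGAGA or neither within 75 bp. W02H3.3 stands highest in both lists at 408 in replicate 1 and 399 in replicate 2.

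The GA repeat had the smallest p of the 12 motifs against the flanks, and it was less frequent on X than on the autosomes. GAGAGA, on either strand, occurred within 75 bp of 116 of 277 X summits (41.9%, exact 95% interval 36.002 to 47.9%) and of 557 of 957 autosomal summits (58.2%, 55.0 to 61.4%). The odds ratio was 0.517 (0.391 to 0.685, Fisher's exact test, adjusted p = 1.513e-05 over 12 motifs). The 12 motifs were chosen with earlier results of these data known, so the adjusted p is not that of an independent test. Single autosomes had 64.7% on I, 60.1% on IV, 59.5% on III, 57.5% on II and 46.1% on V, so chromosome V was the nearest to X. In 151-base tiles of all eligible sequence the repeat occurred in 6.86% on X and 7.43% on the autosomes. Around X summits it occurred in 7.94% of windows centred 500 bp away at lower coordinates and in 4.69% at higher coordinates (exact McNemar test against the lower flank, adjusted p = 1.795e-18).

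The share of the GA repeat was not lower at X summits at promoters. Among summits in promoter windows or near small RNA genes, GAGAGA was present at 123 of 293 on X (41.98%) and 367 of 1048 on the autosomes (35.0%, Fisher's exact p = 0.0333), a direction opposite to that outside promoters. That comparison was added after the data were seen. The longest run of alternating GA through the motif had a median of 7 bp on X and 7 bp on the autosomes, and runs of at least 12 bp were found at 12 of 116 X summits (10.3%) and 99 of 557 autosomal summits (17.8%). On X, 26.7% of summits with the repeat and 25.5% of those without it were in the top 25% by signal (odds ratio 1.07, 0.596 to 1.90, Fisher's exact p = 0.890). On the autosomes 26.6% with it and 14.3% without it were in the top 25% (odds ratio 2.18, 1.54 to 3.11, Fisher's exact p = 4.702e-06). Whether the association itself differs between X and the autosomes was not tested.

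**Figure D3:**
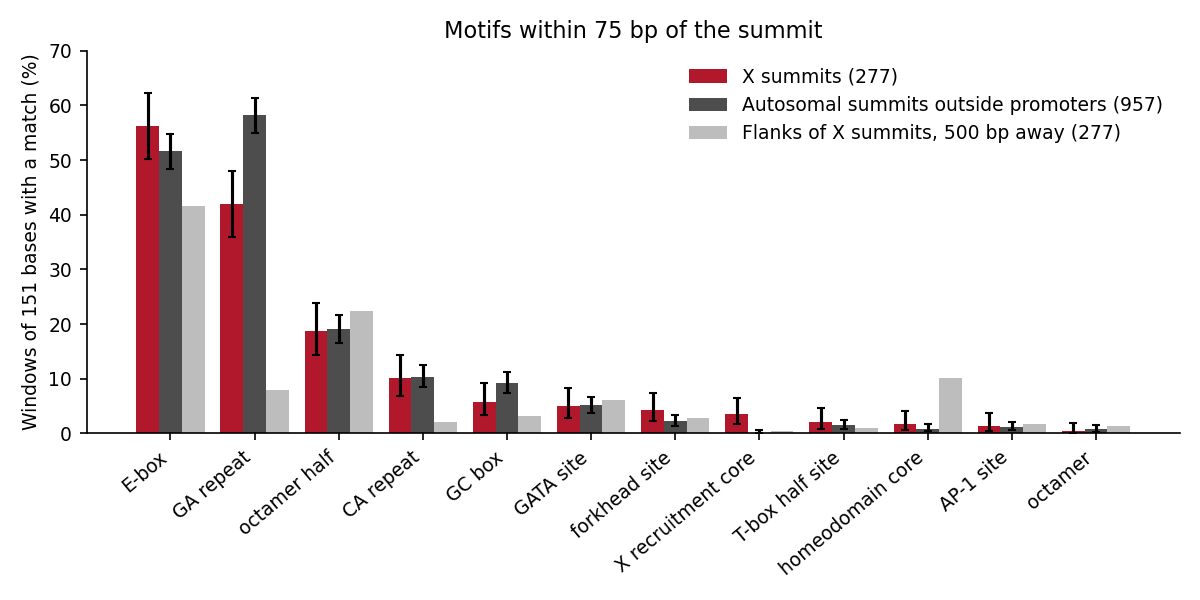
Percent of 151-base windows with a match (y axis) for the 12 motifs searched (x axis, by name), at X summits, autosomal summits and the lower flanks of the X summits, 500 bp away. Bars on the first 2 series are 95% exact binomial intervals. The GA repeat was at 41.9% on X and 58.2% on the autosomes, and the X recruitment core at 3.61% on X and 0.104% on the autosomes.

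The recruitment core GCGCAGGG was the other motif that differed, in the opposite direction. It lay within 75 bp of 10 X summits (3.61%, 1.74 to 6.54%) and of 1 autosomal summit (0.104%, 0.00265 to 0.581%), which was on chromosome V. The odds ratio was 35.8 with a wide interval of 5.04 to 1555 (Fisher's exact test, adjusted p = 1.513e-05). GCGCAGGG, too, was chosen with earlier results of these data known. In eligible tiles it occurred in 0.0615% on X and 0.0362% on the autosomes, and in each flank of the X summits in 0.361% (exact McNemar test, adjusted p = 0.00938). Counted from the genome, X has 81 copies (4.57 per Mb) and the autosomes have 233 (2.82 per Mb). On X, 14 of the 81 (17.3%) lay within 75 bp of one of these summits, against 1 of 233 (0.429%) on the autosomes (odds ratio 48.5, 7.04 to 2058, Fisher's exact p = 2.796e-08). The 14 copies lay at only 10 summits, so they are not separate observations. The totals include copies in promoter windows or near small RNA genes, with 66 on X and 157 on the autosomes outside these. Within 75 bp of any summit, promoters included, lay 17 copies on X and 4 on the autosomes. All 10 X summits kept a copy when the window was narrowed to 50 bp. In the promoter and small RNA classes it was present at 3 of 293 X summits and 3 of 1048 autosomal summits (Fisher's exact p = 0.122).

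Summits with the core were among the strongest on X. Their signals ran from 160 to 804 with a median of 557, and 7 of the 10 were in the top 25% of the list, more often than among the other 267 X summits (odds ratio 7.25, 1.59 to 44.3, Fisher's exact p = 0.00378). That p comes from an unplanned follow-up test and is not adjusted, and 2 of the 10 summits share 1 peak. Of the 20 strongest X summits outside promoters 7 had it, of the other 257 X summits 3 had it, and of the 20 strongest autosomal ones 0 had it. None of the 10 also had GAGAGA. Without them the X to autosome ratio of density was 1.23 (exact p = 0.00319) and the odds ratio for the top 25% was 1.18 (Fisher's exact p = 0.317).

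The strongest of these, at chrX:11093904-11094412, lay in intergenic sequence 3997 bp downstream of the 5′ end of W02H3.3. Its signal was 804 in the thresholded list, 408 in replicate 1 and 399 in replicate 2, and it ranked 5 in each of the 3 lists. The summit in intron 7 of mom-1, which encodes the Porcupine homologue needed to secrete Wnt ligands, had a signal of 696, with 343 in replicate 1 and 351 in replicate 2. The summit 4869 bp upstream of xol-1, at chrX:8036104-8036711, had a signal of 630, with 325 in replicate 1 and 313 in replicate 2. The gene xol-1 is the switch that reads the X to autosome ratio and sets both sexual fate and dosage compensation. These 3 stood far above the X median in the thresholded list and in the first 30 of each replicate's list.

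The other core-bearing summits were a mixed group by position. The summit beside F20B6.9 had a signal of 639, the one in a coding exon of pks-1, a polyketide synthase gene, had 611, and the one beside gtr-1 had 485. In intron 6 of Y41G9A.17, 1 peak held 2 summits with the core, at signals of 502 and 163. The summit 6258 bp downstream of the 5′ end of dpy-23, which encodes the medium chain of the AP-2 clathrin adaptor, had 194, and the one beside WBGene00020828 had 160. By class, 6 of the 10 were intergenic, 3 were in introns and 1 was in a coding exon. Below the threshold of the pooled list, the core was near 8 of 3478 X summits (0.230%) and 16 of 15688 autosomal ones (0.102%, Fisher's exact p = 0.0633).

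**Figure D4:**
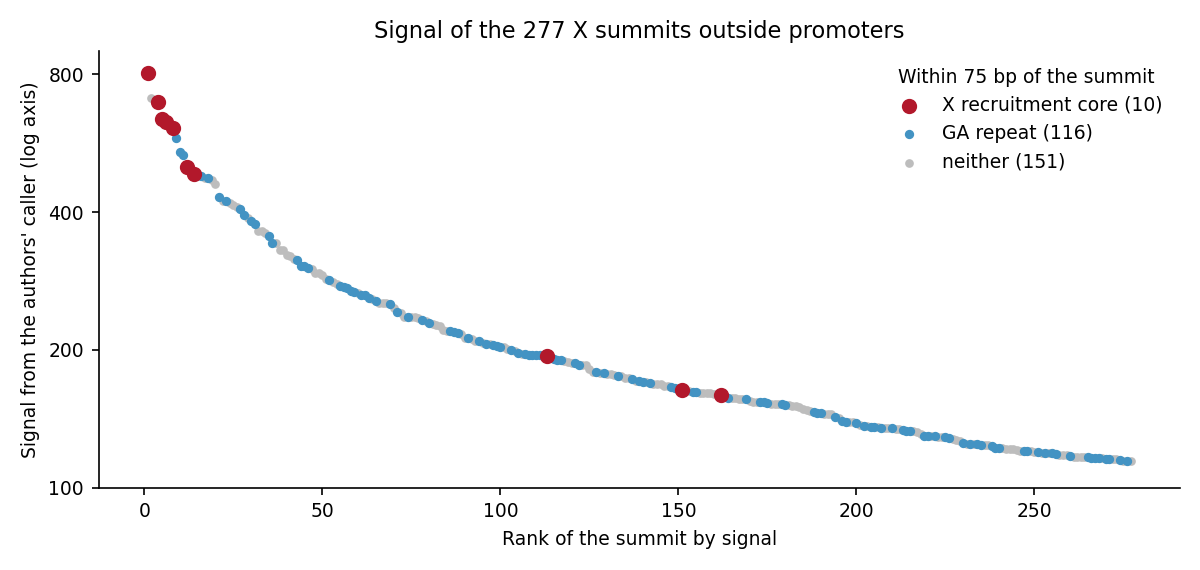
Signal of the 277 X summits outside promoters (y axis, log axis, caller's unstated scale) by rank (x axis). Colour marks GCGCAGGG, GAGAGA or neither within 75 bp. Of the 10 summits with the core, 7 were among the first 20 and the other 3 were at ranks 113, 151 and 162.

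A scan of all 2080 words of 6 letters, each counted with its reverse complement, gave both higher and lower words on X. At adjusted p under 0.05 by Fisher's exact test, 9 words (0.433%) were more frequent at X summits outside promoters and 12 (0.577%) were less frequent. Of the 9, 2 are pieces of the core: CTGCGC was at 12.6% of X summits and 5.33% of autosomal ones, and CCCTGC at 10.1% and 3.76%. The other 7 are not exact pieces of it, and CCTTCG is one of them. However, CCTTCG and CTTCGC, also among the 7, lie in CCCTTCGC, which differs from CCCTGCGC by a single base. CCCTTCGC was at 9 X summits and 5 autosomal ones (Fisher's exact test, adjusted p = 0.178). Such near matches were not counted as the core. CCTTCG was at 31 X summits (11.2%) and 42 autosomal ones (4.39%, odds ratio 2.75, Fisher's exact test, adjusted p = 0.0118). In eligible tiles it occurred in 2.50% on X and 2.74% on the autosomes. Of the 31, 6 also had the core and 10 were among the 20 strongest. The K02D3.1 window printed above holds CCTTCG within CCCTTCGC. The palindrome TCGCGA was at 5.42% of X summits and 0.940% of autosomal ones (Fisher's exact test, adjusted p = 0.00548).

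The words that were rarer on X were mostly GA-rich words and words that overlap ACGCAG. The word AGAGAG was at 34.3% of X summits and 55.4% of autosomal ones (odds ratio 0.421, Fisher's exact test, adjusted p = 1.326e-06). ACGCAG was at 10.8% of X summits and 25.3% of autosomal ones (odds ratio 0.359, Fisher's exact test, adjusted p = 1.086e-04), with 2.52% of tiles on X and 2.77% on the autosomes. Among the 4045 words of 8 letters found in at least 10 windows, 6 were more and 6 were less frequent on X. GACGCAGA was at 3.61% of X summits and 15.8% of autosomal ones (Fisher's exact test, adjusted p = 2.081e-05), and CCTGCGCG at 4.33% of X summits and 0.104% of autosomal ones (adjusted p = 1.901e-04). Overlapping words are not separate observations, and the word scans were added after the data were seen.

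None of the 3 words searched for POU and homeodomain proteins was more frequent at these summits than in their lower flanks. The octamer ATGCAAAT was within 75 bp of 1 X summit (0.361%) and 7 autosomal ones (0.731%), against 1.44% of the X flanks. Its shorter part ATGCA was at 18.8% of X summits, 19.02% of autosomal summits and 22.4% of the lower X flanks. The homeodomain core TAATTA was less frequent at X summits than beside them, at 1.81% against 10.1% in the lower flank (exact McNemar test, adjusted p = 2.037e-04), and was at 0.836% of autosomal summits. These words are rich in A and T, and the summits were rich in G and C: the median GC content was 48.3% at X summits against 32.5% in their flanks, and 47.0% at autosomal summits against 33.8% in theirs. The part of base composition in the motif shares was not tested.

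Of the other motifs, the CA repeat ACACACAC was at 10.1% of X summits against 2.17% of the lower flanks (exact McNemar test, adjusted p = 4.523e-04), and at 10.3% of autosomal summits. The E-box CANNTG was at 56.3% of X summits against 41.5% of the lower flanks (exact McNemar test, adjusted p = 0.00143), and at 51.6% of autosomal summits. Its flank difference missed the threshold in replicate 1's strongest peaks alone (exact McNemar test, adjusted p = 0.0791) and in windows of 50 bp (adjusted p = 0.0700). In all, 5 of 12 motifs passed against the flanks and 2 of 12 passed between X and the autosomes. The GATA, AP-1, forkhead, T-box and GC box words passed neither test.

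**Figure D5:**
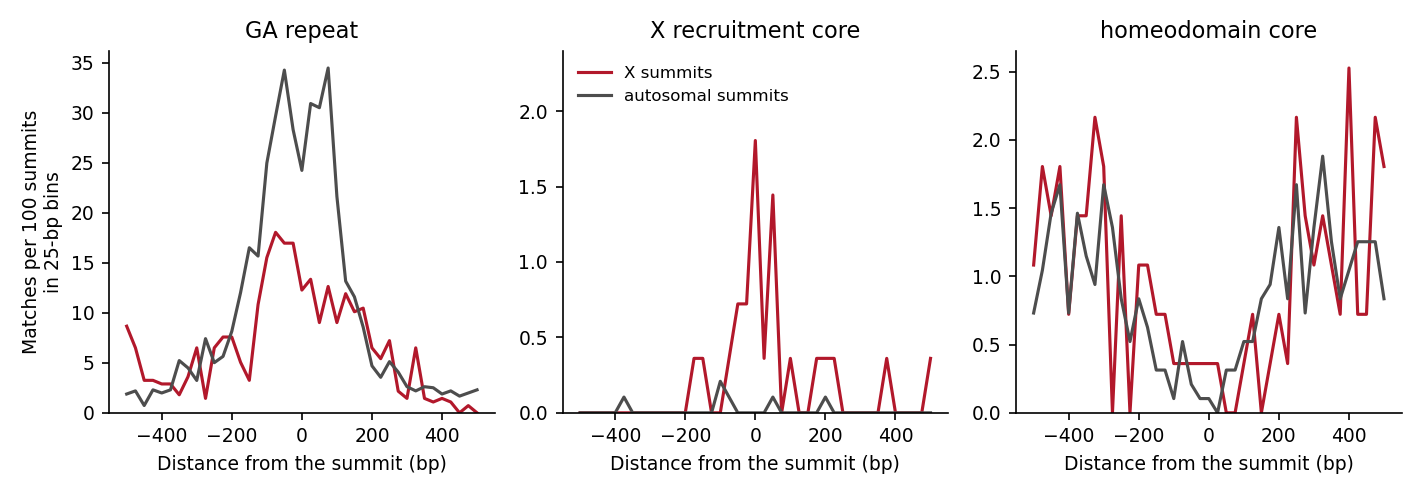
Matches per 100 summits in 25-bp bins (y axis) by distance from the summit (x axis) for the GA repeat, the X recruitment core and the homeodomain core, at X summits and autosomal summits. The GA repeat reached 18.1 per 100 X summits and 34.5 per 100 autosomal summits, both 75 bp from the summit, and the homeodomain core had at most 1 match per bin within 100 bp of the X summits.

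Intron summits on X were most often in the first intron of a gene. The 103 were in 70 genes, and their host introns had a median length of 4306 bp (169 to 18930 bp), against a median of 886 bp for the intron around each eligible intron base on X, a description with no test. Intron 1 held 65 of the 103 (63.1%), while first introns make up 36.4% of the eligible intron bases on X. With the 5′ ends of all transcripts in place of 1 per gene, 38 of the 277 fell inside a promoter window, 36 of them intron summits. A start annotated for another transcript therefore lay close to 36 of the 103 intron sites. An ncRNA gene lay within 200 bp of 79 X summits (28.5%) and 180 autosomal ones (18.8%), while the zones within 200 bp of such genes cover 5.55% of eligible bases on X and 2.70% on the autosomes.

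Summits were spread along the whole chromosome. The 17 full 1 Mb bins held 7 to 26 each, with a median of 16, the median gap was 31.7 kb and the longest 449 kb. Close neighbours were common, since 122 (44.04%) lay within 5 kb of another and 49 within 1 kb. Around ceh-18 itself, which is on X, 1 summit fell within 50 kb on either side, an intergenic one with a signal of 136 that lay 3566 bp upstream of sup-12, which encodes an RNA-binding regulator of muscle splicing.

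Each summit was given to its host gene or, in intergenic sequence, to the gene with the nearest 5′ end, and 210 of 2731 protein-coding genes on X (7.69%) received at least 1. Of these genes, 159 had 1 summit, 39 had 2, 9 had 3, 2 had 4 and 1 had 5. These counts are of summits and not of separate sites, since summits in the same peak or in overlapping peaks each count. The gene with 5 was sma-9, which encodes a zinc finger protein of the Schnurri family that acts with TGF-beta signalling in body size and mesoderm. Its summits had signals of 620, 281 and 273 in intron 1 and of 474 and 121 in the upstream intergenic sequence, and the strongest had 320 in replicate 1 and 307 in replicate 2. The summits of 620 and 281 lay in the same peak, and those of 474 and 121 lay in overlapping peaks. The 4 of the nuclear hormone receptor gene nhr-1 had signals of 532 and 117 upstream, in overlapping peaks, and of 195 and 133 in intron 1. The 4 of dyc-1, which encodes a muscle dense body protein linked to dystrophin, had signals of 209, 146, 128.5 and 124, and all 4 had GAGAGA. The dyc-1 peaks did not overlap each other. A longer gene offers more sequence in which a summit can be given to it, and the counts were not adjusted for length. The genes sma-9, nhr-1 and dyc-1 are 13.7, 14.1 and 14.4 kb long.

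The heterochronic genes, which set the timing of larval cell fates, had the highest share of bearers among the 13 lists. On X, 5 of 7 had a summit outside promoters, with 11 summits together. The gene kin-20, a casein kinase related to Doubletime of flies, had 3 in intron 1 with signals of 414, 205 and 133. Those of 414 and 133 lay in the same peak. The gene lin-14, whose product is high in early larvae and is repressed by the microRNA lin-4, had 382 in intron 1 and 228 in intron 3. The nuclear receptor gene daf-12 had 364 and 125, both in intron 1 and in overlapping peaks. The Argonaute gene alg-1 and the hunchback homologue hbl-1 had 4 summits between 117 and 196. These lists are short, were drawn up with earlier results of these data known, and carry no test of their own. Over all protein-coding genes on X, 7.69% had a summit. The shares were not adjusted for gene length, and kin-20 is 9.16 kb long.

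The counts of the other lists also stand beside 7.69% of all protein-coding genes on X. They were not adjusted for gene length, come from lists drawn up with earlier results known, and carry no test. The nuclear hormone receptor genes had 7 bearers of 23 on X, with 14 summits. After nhr-1, the strongest were the intron summit of nhr-3 with 424, the intron summit of nhr-40 with 394 and the upstream summit of nhr-17 with 219. Muscle genes had 5 bearers of 17. Their strongest summits were 342 in intron 6 of dim-1, an immunoglobulin-domain protein of muscle attachment, and 331 upstream of the troponin I gene tni-1, followed by 209 in dyc-1 and 197 in intron 1 of the actin gene act-4. Genes of synapse, axon and excitability had 5 of 32, led by the potassium channel gene twk-18 with 323, the stomatin gene unc-1 with 263 and the innexin gene unc-9 with 212. The guidance receptor gene sax-3, a Robo homologue, had 157 and 142.

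Cell signalling genes had 5 bearers of 20, with 274 upstream of the kinase gene mig-15, 220 upstream of the kinase gene pdk-1, 176 in intron 3 of the Ras scaffold gene ksr-1 and 161 upstream of the Ras regulator gene gap-1. Of 7 basement membrane genes, let-2, a type IV collagen gene, had 1 summit at 316. Of 6 RNA-binding genes, alg-1 and sup-12 were bearers. Of 8 genes of the X signal, sex determination and dosage compensation list, xol-1 and dpy-23 had one each, both with GCGCAGGG. The product of dpy-23 is the clathrin adaptor chain named above, so only xol-1 is a bearer with a role that the list name describes. The list of other transcription factors had 1 bearer of 26, which was sma-9. It is a selection and not a full count of such genes on X. The genes lin-14 and hbl-1 were counted as heterochronic, and egrh-1, with a summit at 430, and mdl-1, with summits up to 236, were on no list. No summit outside promoters was given to any of 18 ceh homeobox genes, 27 col collagen genes, 9 ciliary genes or 2 ribosomal protein genes on X. Over all protein-coding genes on X the share of bearers was only 7.69%, so lists this short could hold few bearers or none. These absences were not tested.

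At the edge of the rule, the summit just outside the upstream limit was beside fbxb-58, 1001 bp upstream with a signal of 476, and the next was beside T21B6.3 at 1032 bp with 195. Just inside it were summits 986 bp upstream of lin-14 with 153 and 950 bp upstream of C29F7.2 with 122. Downstream, the nearest outside were in the 5′ UTRs of mai-1 at 214 bp with 284 and tag-18 at 480 bp with 189, and the nearest inside were those of M60.4 at 193 bp with 161 and tsp-21 at 191 bp with 255. The weakest of the 277 lay 5134 bp upstream of svh-5 with a signal of 114.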

How the data were processed

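Protein-bound DNA was measured by chromatin immunoprecipitation and sequencing in 2 replicates of 1 group. The authors deposited peak lists for each replicate, for the pooled replicates and thresholded by the irreproducible discovery rate (IDR), on ce10 and ce11, per the labels and the readme text beside the lists. The signal of each peak and its -log10 q were deposited by the authors; 200 of the 277 summits shared the highest -log10 q, so ranks use the signal. The sources used here do not give the aligner or the peak caller. Reads were not used, so depth is unknown, and nothing beyond the labels says whether the replicates came from separate cultures.

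The ce11 lists were read with the same-build WBcel235 sequence and Ensembl release 115 genes. Coordinates are 1-based. A summit in several gene features counted first as 5′ UTR, then coding exon, 3′ UTR and last intron, and one outside protein-coding genes as intergenic. Motifs were searched on both strands, N standing for any base. Rates were compared with an exact conditional Poisson test, shares with Fisher's exact test and flanks with an exact McNemar test, all two-sided, with Benjamini-Hochberg adjustment at 0.05 within each family; no p adjusted over a gene list is given. The tests were run on simulated summits to check them. Named genes were those of the 20 strongest summits (a selection is given), the genes with most summits, up to 4 of each list, and those nearest the limits of the rule; the members, motifs and lists were chosen with earlier results of these data known. Alternatives were other promoter windows, no exclusion near small RNA genes, the 1287 strongest peaks, summits within 300 bp merged, each replicate alone, each autosome left out, and other motif windows and flanks. Transcript 5′ ends, the word scans, the promoter-side motif comparison and the removal of summits with GCGCAGGG were added after seeing the data. Python 3.11.15, numpy 2.4.6, scipy 1.17.1 and matplotlib 3.10.9 were used.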

Additional observations from a re-analysis of the deposited data

How the results depend on the processing

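The higher density on X (ratios 1.17 to 1.41 over 15 alternatives, p at most 0.0267), the GAGAGA and GCGCAGGG contrasts with the autosomes (17 alternatives each, adjusted p at most 0.0109 and 0.0455) and 4 of the 5 flank contrasts (11 each) kept their direction and stayed past the threshold. Results that missed the threshold and passed it elsewhere were the following. With the 500 and 100 bp window, the intergenic density ratio was 1.21 and the intron odds ratio 0.739. With the 2000 and 500 bp window, the intron and intergenic density ratios were 1.29 and 1.32. Without the small RNA exclusion they were 1.29 and 1.32, the share outside promoters had an odds ratio of 1.33 and the intron share 0.699. The intron odds ratio was 0.641 in the stronger peaks, 0.737 without chromosome IV, 0.740 without chromosome V, 0.699 with transcript 5′ ends, and 0.741 with replicate 2's strongest peaks alone; with replicate 1's alone it was 0.788 and missed the threshold. Without chromosome I the intron and intergenic ratios were 1.302 and 1.24, and without chromosome III they were 1.26 and 1.26. Without chromosome V they were 1.14 and 1.04 and missed the threshold. The intron ratio missed it in 9 of 13 alternatives and the intergenic ratio in 8 of 13. The cause was not tested. Replicate 1 covered 91.3% of summits when the overlap had to be at least 50% of both peaks and 91.0% with its strongest peaks, and replicate 2 covered 87.7% and 89.5%. With autosome V left out or introns alone, the autosomes had 0 summits with GCGCAGGG, so the odds ratio is not given in the text. No paired analysis was possible because the replicates form 1 group. Depth is unknown, and the 10 summits with GCGCAGGG limit the precision of every statement on them.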
